A study of Rattus norvegicus with 12 samples.

Results

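Gene activity 7 days after a burn was measured in 3 of the 12 samples of a rat series, which follows thermally injured rats and sham-treated controls on days 1, 2, 4 and 7 with 3 samples per day. The members are the day 7 samples 1, 2 and 3, taken by their titles. By the labels every sample is a pair of channels on the Affymetrix RAE230A array, with RNA of a sham control (Cy3) in the first and RNA of a thermally injured rat (Cy5) in the second. This kind of array is read in a single colour, so a ratio may compare separate sham and injury arrays, and the labels do not settle which. The labels give no strain, sex, age, tissue or burn size, and no other treatment of either arm. They also do not say whether the 3 samples of a day are separate animals, so p-values measure only the spread between these samples, which may be technical. Of the marker lists, hepatocyte genes were the brightest, with a median signal of 13.57 on the log2 scale against 10.56 for all genes and 19 of 21 among the brightest 25% of genes. Macrophage genes followed at 12.12, and the 11 other lists lay between 7.63 and 10.98. The array carries probe sets, groups of short probes that each read 1 transcript, and 10411 genes could be named from 15866 probe sets tested.

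A large burn sets off a systemic inflammatory and hypermetabolic response that lasts for weeks. Cytokines of the interleukin-1 and interleukin-6 families make the liver secrete acute-phase proteins, which bind microbes, free haem or proteases, while transcripts of albumin and other carrier proteins fall. Inflammation is also known to lower the liver's detoxifying enzymes. These are the cytochromes P450, which oxidise drugs and steroids, and the transferases that couple the products to glutathione or glucuronic acid.

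Values are log2 ratios, relative to the median of their array, so that 1 is a doubling and -1 a halving. Injury over sham is the likely order, since the labels put injury in the second channel, so values above 0 are taken to mean a higher level in the burned arm. The direction of every result depends on that reading. Before centring, the medians of samples 1, 2 and 3 were 0.02, 0.07 and 0.16. Sample 3 was the widest, with 15.8% of its ratios beyond a doubling or halving against 12.7% in sample 1 and 11.98% in sample 2. Across genes, which are not independent replicates, Pearson's r between the day 7 samples was between 0.0446 and 0.127, and between -0.100 and 0.12 for a day 7 sample with one of day 2 or 4. The 3 samples therefore shared little of their ranking of genes, and 3 samples limit the precision.

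At day 7, 4 of 10411 genes passed (0.0384%, limma with Benjamini-Hochberg adjusted p under 0.05). The detoxifying enzymes Gstm2 and Akr7a3 fell (0.0192% of genes), and the plasma protein genes Orm1 and Apob rose (0.0192%). The count depends on how the spread of a gene is estimated, since limma called 0 genes without a spread that follows brightness (1139 at an unadjusted p under 0.05) and 0 from the 3 day 7 arrays alone (1161). At an unadjusted p under 0.05, with these 4 included, 565 genes lay on the high side (5.43%) and 728 on the low side (6.99%). Of all genes, 15.6% lay above 0 in 3 of 3 samples and 18.0% below 0 in 3 of 3, and the median gene lay at -0.01.

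**Figure D1:**
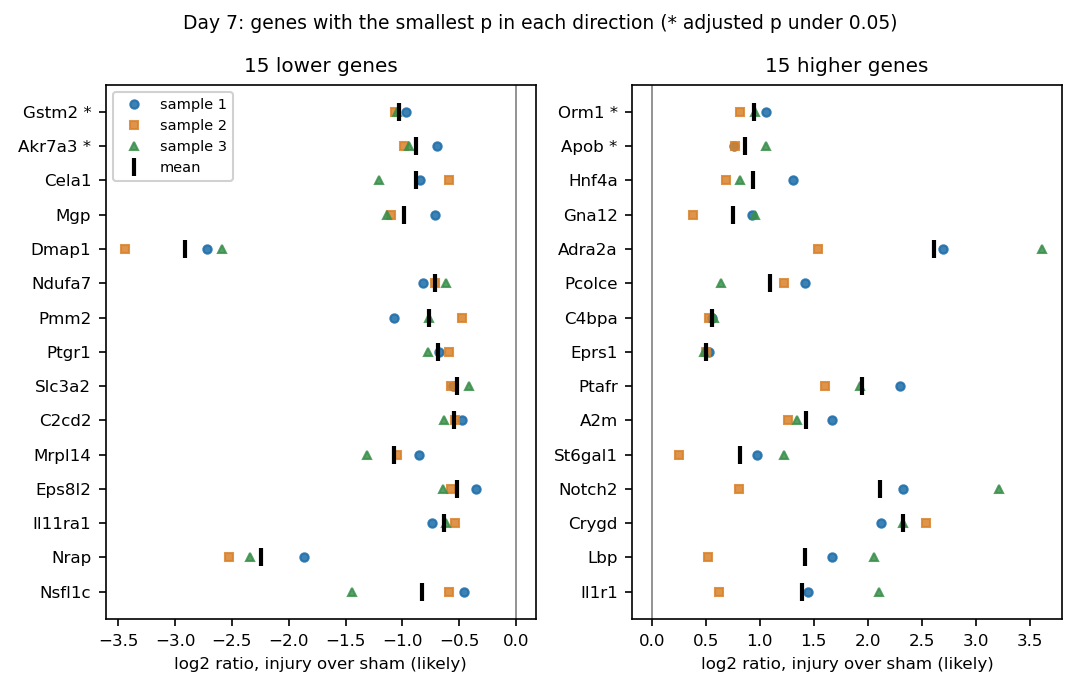
Log2 ratio in each day 7 sample (blue circles, sample 1; orange squares, sample 2; green triangles, sample 3) and their mean (black bar) for the 15 lower and 15 higher genes with the smallest p, those marked * with an adjusted p under 0.05. Gstm2, C4bpa and Eprs1 had the 3 samples close together, with SDs of 0.05, 0.02 and 0.02, while Notch2 and Adra2a ranged over more than 2 log2 units.

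Gstm2 encodes a mu-class glutathione transferase, which joins reactive compounds to glutathione. It stood at -0.97, -1.07 and -1.05 in samples 1, 2 and 3. The samples were almost level and all far below 0. Its mean of -1.03 ± 0.05 (SD, n = 3) is 2.04-fold lower (adjusted p = 0.00216), and it passed with any single day 7 sample left out. In limma it did not pass without the brightness trend (adjusted p = 0.0673) or from the day 7 arrays alone (0.175). Nor did it in a fit over 12 arrays without that trend (0.0941). That fit takes in day 1, whose probe identifiers do not follow those of the other days, so it cannot decide on the call. The brightness of Gstm2, which the trend uses, could not be recovered and was set to an upper limit. Akr7a3, an aldehyde reductase that detoxifies aflatoxin dialdehyde, had -0.70, -0.99 and -0.95. Its mean was -0.88 ± 0.16 (SD, n = 3), 1.84-fold lower (adjusted p = 0.032), with all samples below 0. That call was lost without sample 1, 2 or 3, at adjusted p of 0.107, 0.0727 and 0.240. Akr7a3 was also below 0 in every sample of days 2 and 4, with means of -0.44 and -0.41. Day 7 did not differ from either day past the threshold (limma adjusted p = 0.544 for day 2 and 0.251 for day 4).

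Orm1, alpha-1-acid glycoprotein, an acute-phase protein that binds drugs in plasma, had 1.06, 0.82 and 0.96. All samples were high, with a mean of 0.95 ± 0.12 (SD, n = 3), 1.93-fold higher (adjusted p = 0.00978). It did not pass without sample 1 (adjusted p = 0.107) or sample 3 (0.108). Apob, the structural protein of the lipoprotein particles that carry triglyceride out of the liver, had 0.76, 0.77 and 1.05, a mean of 0.86 ± 0.17 (SD, n = 3), 1.82-fold higher (adjusted p = 0.0148). The mean of Apob rests on 1 of its 2 probe sets. One stood at 1.56 ± 0.25 and the other, the brighter, at 0.17 ± 0.15, and with the brighter alone the adjusted p was 0.639. Apob did not pass without sample 1 (adjusted p = 0.107) or 3 (0.158) either.

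Tested as 15866 single probe sets, 7 passed (0.0441%), among them 1 for each of the 4 genes. The others were 1 probe set each of Hnf4a (1.14), Mbnl2 (-0.80) and Lig4 (-2.22). For Hnf4a the second probe set stood at 0.73. Mbnl2, a splicing regulator, had 2 more probe sets at 0.61 and 0.52, and Lig4, a DNA ligase, had another at 0.25, so the probe sets of these 2 genes disagreed in sign.

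Next in rank on the high side, none passing over all genes, were regulators and receptors as well as secreted proteins. Hnf4a, the nuclear receptor that maintains the hepatocyte programme, had 1.31, 0.69 and 0.81 (mean 0.94 ± 0.33, SD, n = 3, adjusted p = 0.0783). C4bpa, a plasma inhibitor of the complement cascade, was nearly identical in the samples, at 0.56, 0.53 and 0.58. Eprs1, which charges tRNA with glutamate and proline, was as even, at 0.53, 0.50 and 0.49. Pcolce, which aids the trimming of procollagen, averaged 1.09 ± 0.40, and Gna12, a G protein subunit, 0.76 ± 0.32, with 0.38 for its brighter probe set and 1.13 for the other. The receptors Ptafr (for platelet-activating factor, 1.95 ± 0.35), Notch2 (2.12 ± 1.22), Adra2a (an adrenergic receptor, 2.62 ± 1.04) and Il1r1 (for interleukin-1, 1.39 ± 0.74) had larger means and wider spreads. Ptafr and Adra2a were read by probe sets among the dimmest 25% of genes, and the probe sets of Il1r1 gave 0.87 for the brighter and 1.92. St6gal1, a sialyltransferase, averaged 0.82 ± 0.50, but its probe sets gave 1.51 and 0.13. The lens crystallin Crygd stood at 2.33 ± 0.21, on a probe set among the dimmest 25% of genes.

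On the low side, Cela1, an elastase, had the smallest p after the 2 called genes, with a mean of -0.88 ± 0.31 (SD, n = 3, adjusted p = 0.0682). Mgp, a matrix protein that keeps calcium salts from settling in soft tissue, had -0.72, -1.10 and -1.13. Ptgr1, which inactivates leukotrienes and prostaglandins, had -0.68, -0.59 and -0.78. The samples of both genes were all well below 0. Slc3a2, the heavy chain of amino acid exchangers, averaged -0.52 ± 0.09, and Pmm2, an enzyme of N-glycosylation, -0.77 ± 0.30. Il11ra1, the receptor chain for interleukin-11, averaged -0.63 ± 0.10, C2cd2 -0.55 ± 0.08, Eps8l2 -0.52 ± 0.15 and Nsfl1c -0.83 ± 0.54. Dmap1, a partner of the DNA methyltransferase Dnmt1, had the lowest mean of all genes at -2.91 ± 0.46, and the muscle gene Nrap had -2.25 ± 0.34, both on probe sets among the dimmest 25%.

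The glutathione transferases had the lowest median of the 53 lists examined. Of 19 measured members, 18 had a mean below 0 (51.6% of all genes did), 11 were below 0 in 3 of 3 samples, and 9 had an unadjusted p under 0.05 on the low side. Gstm2 alone passed over all genes. The list median was -0.42, and -0.23, -0.41 and -0.54 in samples 1, 2 and 3. After Gstm2 came Gstm7 at -0.80, -0.41 and -1.54, the membrane-bound Mgst2 at -0.33, -0.59 and -0.91, and Gstm4 at -0.37, -0.41 and -0.62. All samples of these 3 were below 0 and sample 3 was the lowest. Whether the probe sets separate close relatives of the mu class was not tested.

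Promoters of this family are shown because its members lay low together and because several carry the antioxidant response element, the motif bound by Nrf2 (gene Nfe2l2). The motif was searched as TGACNNNGC on both strands, in windows from 250 bases before to 50 bases after the RefSeq start on GRCr8. It was found in 6 of the 16 members with a window (37.5%) and in 12.2% of 27457 windows of all genes. A higher share than in all windows was not particular to this pair of motif and list. The core of the xenobiotic response element, GCGTG, was in 60% of 5 windows of P450 family 1 and its regulators (31.1% of all), the E-box CACGTG in 18.75% of 16 windows of clock genes (6.65%) and the CArG box in 3.57% of 28 windows of contractile genes (1.64%). The 6 were Gstm5, Gstm7, Gsta1, Gsta3, Gstp1 and Gstz1, and the Gstm2 window held no match. In the sequences, the motif is in capitals. Gstm2 lies on the minus strand at chr2:198316868-198317167, Gstm7 on the minus strand at chr2:198260270-198260569, Gsta1 on the minus strand at chr9:31216483-31216782 and Gstp1 on the minus strand at chr1:210769656-210769955.
Gstm2: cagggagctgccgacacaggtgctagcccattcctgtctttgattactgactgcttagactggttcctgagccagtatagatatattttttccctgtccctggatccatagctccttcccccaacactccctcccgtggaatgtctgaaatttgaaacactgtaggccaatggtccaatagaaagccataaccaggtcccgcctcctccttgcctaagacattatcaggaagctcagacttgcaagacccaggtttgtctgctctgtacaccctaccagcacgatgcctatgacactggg
Gstm7: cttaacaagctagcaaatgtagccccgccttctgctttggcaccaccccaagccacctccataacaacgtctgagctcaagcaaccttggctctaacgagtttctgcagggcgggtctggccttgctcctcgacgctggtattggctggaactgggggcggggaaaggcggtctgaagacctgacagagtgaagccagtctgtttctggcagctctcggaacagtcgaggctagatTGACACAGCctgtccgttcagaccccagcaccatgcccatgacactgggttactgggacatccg
Gsta1: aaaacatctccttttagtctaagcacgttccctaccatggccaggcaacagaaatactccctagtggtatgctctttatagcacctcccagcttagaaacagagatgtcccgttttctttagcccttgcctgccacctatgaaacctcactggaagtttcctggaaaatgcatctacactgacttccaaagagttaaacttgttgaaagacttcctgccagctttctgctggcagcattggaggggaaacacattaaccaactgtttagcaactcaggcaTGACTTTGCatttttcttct
Gstp1: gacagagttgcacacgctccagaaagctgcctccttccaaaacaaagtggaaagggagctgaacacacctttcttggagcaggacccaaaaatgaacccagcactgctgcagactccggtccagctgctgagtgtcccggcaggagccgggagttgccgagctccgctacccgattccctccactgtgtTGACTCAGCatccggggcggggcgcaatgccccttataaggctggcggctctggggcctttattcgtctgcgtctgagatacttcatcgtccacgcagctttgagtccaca
The genes with the motif spread over the family's range at day 7. Gstm7 averaged -0.92, Gsta1 -0.32 and Gstp1 -0.22. Nfe2l2 itself had -0.23, -0.53 and -0.82 (mean -0.53 ± 0.29, SD, n = 3, adjusted p = 0.173). Of the other antioxidant genes, Gclm, which helps make glutathione, averaged -0.34 ± 0.33 and the extracellular superoxide dismutase Sod3 -0.41 ± 0.33. Hmox1, which breaks down haem, had 1.47, -0.32 and 1.67, so that its samples lay on both sides of 0. None of the 28 antioxidant and metal-binding genes passed, and 20 had a mean below 0.

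Glucuronosyltransferases and the enzymes that supply them had a median of -0.40, with 7 of 8 means below 0 and 5 with an unadjusted p under 0.05 on the low side. Ugdh, which makes UDP-glucuronic acid, had -0.47, -0.36 and -0.72. Ugp2, one step earlier, averaged -0.34 ± 0.12. The transferases Ugt2b7 (-0.74 ± 0.22) and Ugt2b35 (-0.35 ± 0.14) were below 0 in all samples, while Ugt2b1 ranged from -1.63 to 0.15. Ugt2a1 was the only member with a mean above 0, at 0.36 ± 0.48. None passed over all genes.

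Cytochromes P450 of families 2 and 3, with their electron donors, had a median of -0.32, and -0.28, -0.20 and -0.30 in the samples. Of 29 members, 25 had means below 0, 18 were below 0 in 3 of 3 samples and 14 had an unadjusted p under 0.05 on the low side, none on the high side. Cyp2d4 averaged -0.66 ± 0.10, Cyp2j4 -0.57 ± 0.25, Cyp2d3 -0.44 ± 0.35 and Cyp2c23, which makes epoxides of arachidonic acid, -0.31 ± 0.04. Cyp2e1, the ethanol-induced P450, had -0.51, -0.27 and -0.46. Nr1i3, the receptor known as CAR that drives many of these genes, had -0.56, -0.91 and -0.60 (mean -0.69 ± 0.19, SD, n = 3, adjusted p = 0.167). No P450 of these families passed over all genes. Family 4, which oxidises fatty acids, had 9 of 10 means below 0 and a median of -0.20, led by Cyp4b1 at -0.38 ± 0.18 and Cyp4f6 at -0.59 ± 0.33.

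Family 1 and its regulators had a median of 0.19 over 6 genes. Cyp1a1, the classical target of the aryl hydrocarbon receptor, had 2.42, 0.84 and 3.53, on a probe set among the dimmest 25%, while Cyp1a2 averaged -0.09 ± 0.13. The receptor Ahr had 0.41, 0.43 and 0.36 and its partner Arnt 0.41, 0.22 and 0.50. The 2 probe sets of Ahr disagreed, at 1.06, 0.15 and 0.41 for the brighter and -0.24, 0.71 and 0.31 for the other. The smallest adjusted p among the 6 genes was that of Cyp1a1, at 0.211.

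Hydrolases and reductases of drug metabolism, the list that holds Akr7a3, had a median of -0.19, with 22 of 27 means below 0 and 8 with an unadjusted p under 0.05 on the low side. Aldh2, which clears acetaldehyde, was even at -0.41, -0.41 and -0.36. Fmo1, a flavin monooxygenase, had -1.25, -0.17 and -1.10, and Aox1, aldehyde oxidase, -1.93, -0.40 and -0.71. Sulfotransferases and methyltransferases were closer to all genes, with 11 of 17 below 0 and a median of -0.08. Among them Inmt, an amine methyltransferase, averaged -1.18 ± 0.24 and Sult1b1 -0.41 ± 0.11.

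**Figure D2:**
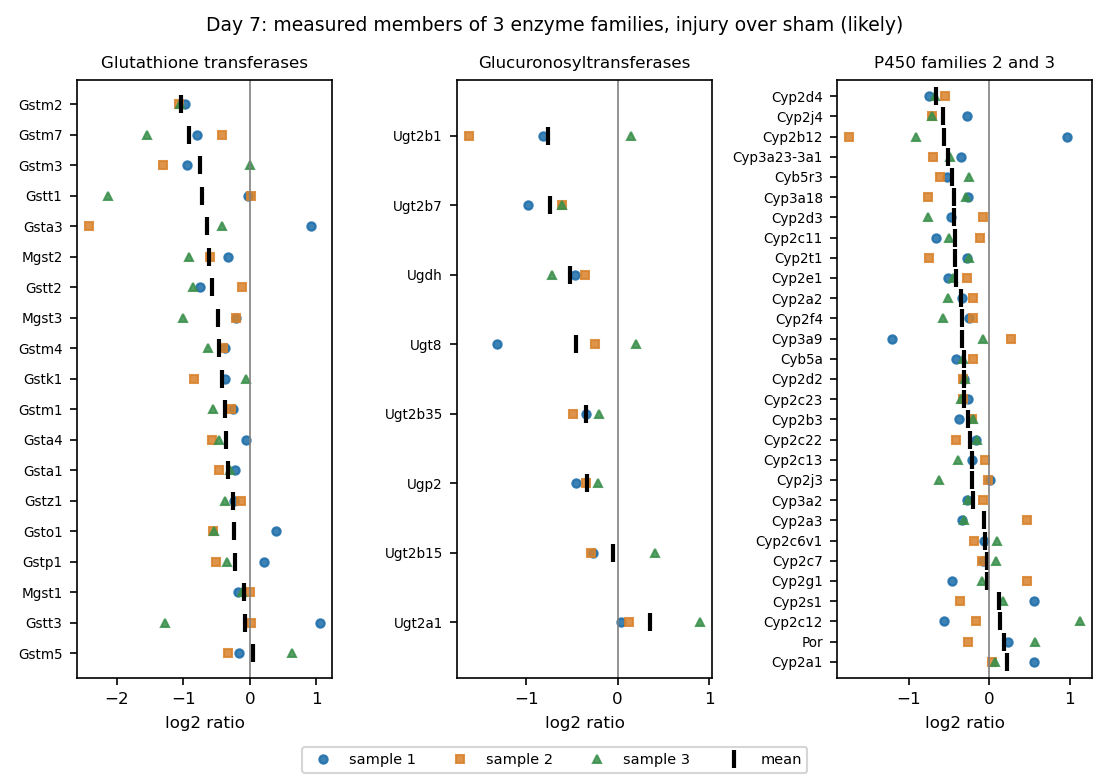
Log2 ratio of each measured member of the glutathione transferases (19), the glucuronosyltransferases with their supply enzymes (8) and the P450 families 2 and 3 with their electron donors (29), per day 7 sample and as a mean (black bar), sorted by mean. Most bars lie left of 0, with list medians of -0.42, -0.40 and -0.32, and single samples of Gsta3, Gstt1 and Cyp2b12 lie far from the other samples of the gene. The 3 samples of Gstm2 lie between -1.07 and -0.97.

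Among the positive acute-phase proteins, 15 of 26 had means above 0 (48.4% of all genes did), 12 were above 0 in 3 of 3 samples, and the median was 0.13. Of these, 9 had an unadjusted p under 0.05 on the high side and 3 on the low side, and Orm1 alone passed over all genes. A2m, the protease inhibitor that is the classical acute-phase protein of the rat, had 1.67, 1.27 and 1.34 (mean 1.43 ± 0.21, SD, n = 3, adjusted p = 0.115). Lbp, which hands bacterial lipopolysaccharide to immune receptors, had 1.67, 0.52 and 2.06. Spink1, a trypsin inhibitor, had 4.30, 3.59 and 1.58, and its probe sets averaged 0.90, 3.86 and 4.71, the first being the brightest and the other two dim. All samples of these genes were above 0, with sample 2 the lowest for A2m and Lbp and sample 3 for Spink1. Lcn2, which withholds iron from bacteria, averaged 1.28 ± 0.51. Of the fibrinogen chains, Fga averaged 0.42 ± 0.16, from probe sets at 0.21 and 0.62.

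Complement and coagulation genes had 25 of 37 means above 0, a median of 0.09, and 8 with an unadjusted p under 0.05 on the high side and 0 on the low side. Besides C4bpa, its partner chain C4bpb had 0.45, 0.44 and 0.19, and C1s, a protease that starts the classical pathway, 0.32, 0.37 and 0.63. Negative acute-phase and carrier proteins had 16 of 18 means below 0, 12 of them in 3 of 3 samples, and a median of -0.16. Fetub averaged -0.24 ± 0.09, Igf1, the growth factor that circulates from the liver, -0.26 ± 0.13 (probe sets at -0.39 and -0.12), and Hrg -0.26 ± 0.22. Serpina7, the thyroxine carrier, was an exception at 1.07 ± 0.72. None of these passed.

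Genes of cytokine signalling were split evenly, with 22 of 44 means on each side of 0, and 6 with an unadjusted p under 0.05 on the high side and 3 on the low side. Stat3, the transcription factor of interleukin-6 signalling, had 1.12, 0.53 and 0.85, and its feedback inhibitor Socs3 had 0.98, 0.56 and 1.30. The chemokine Cxcl1 had 3.28, 0.36 and 2.63 on a probe set among the dimmest 25%. In these genes sample 2 was the lowest, as it was for Il1r1 (1.45, 0.62 and 2.10). Jun, an immediate early gene, stood at -0.40 ± 0.08, with its 3 probe sets at -0.62, -0.44 and -0.14. Interferon-response genes had a median of 0.01, with 18 of 35 means above 0. At an unadjusted p under 0.05, 2 lay on the high side and 4 on the low side. Those with the smallest p lay low: Irf9 at -0.65 ± 0.34, Usp18 at -1.03 ± 0.55, Oas1a at -0.61 ± 0.26 and Ifi35 at -0.42 ± 0.16. No gene of these 2 lists passed.

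Neutrophil markers had 7 of 10 means above 0. The calcium-binding proteins S100a8 (3.15, 1.19 and 3.10) and S100a9 (2.62, 0.98 and 1.57) were above 0 in all samples, while Itgam averaged -0.50 ± 0.39 and Cxcr1 0.24 ± 0.13. The probe sets of S100a8 and Itgam were among the dimmest 25%. The list medians were -0.14, 0.25 and 0.54 in samples 1, 2 and 3. In RNA from a mixed tissue, more or fewer cells of a type and more or less RNA per cell cannot be told apart. Their part in the acute-phase values, Lcn2 among them, was not tested.

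Liver transcription factors had 14 means above 0 and 17 below. Beside Hnf4a, the bile acid regulator Nr5a2 had 0.94, 0.13 and 1.21 and Ppara, the fatty acid sensor, 0.53, 2.37 and 1.92, the last gene on a probe set among the dimmest 25%. None passed. In fatty acid synthesis, Acacb and Acaca, the carboxylases that make malonyl-CoA, averaged 1.11 ± 0.36 and 0.59 ± 0.11 (Acaca at 0.22 on its brighter probe set and 0.96 on the other), and Gpam, which starts triglyceride synthesis, 0.89 ± 0.92. The list as a whole had 12 of 28 means above 0 and a median of -0.10. In fatty acid oxidation and ketone synthesis, 27 of 35 means were below 0 (median -0.15). Bdh1, which makes the ketone body 3-hydroxybutyrate, averaged -0.52 ± 0.08, Echs1, an enoyl-CoA hydratase, -0.43 ± 0.03 and Etfb, an electron carrier, -0.44 ± 0.24. Among bile acid genes, the sterol hydroxylase Cyp27a1 had -0.32, -0.49 and -0.64.

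**Figure D3:**
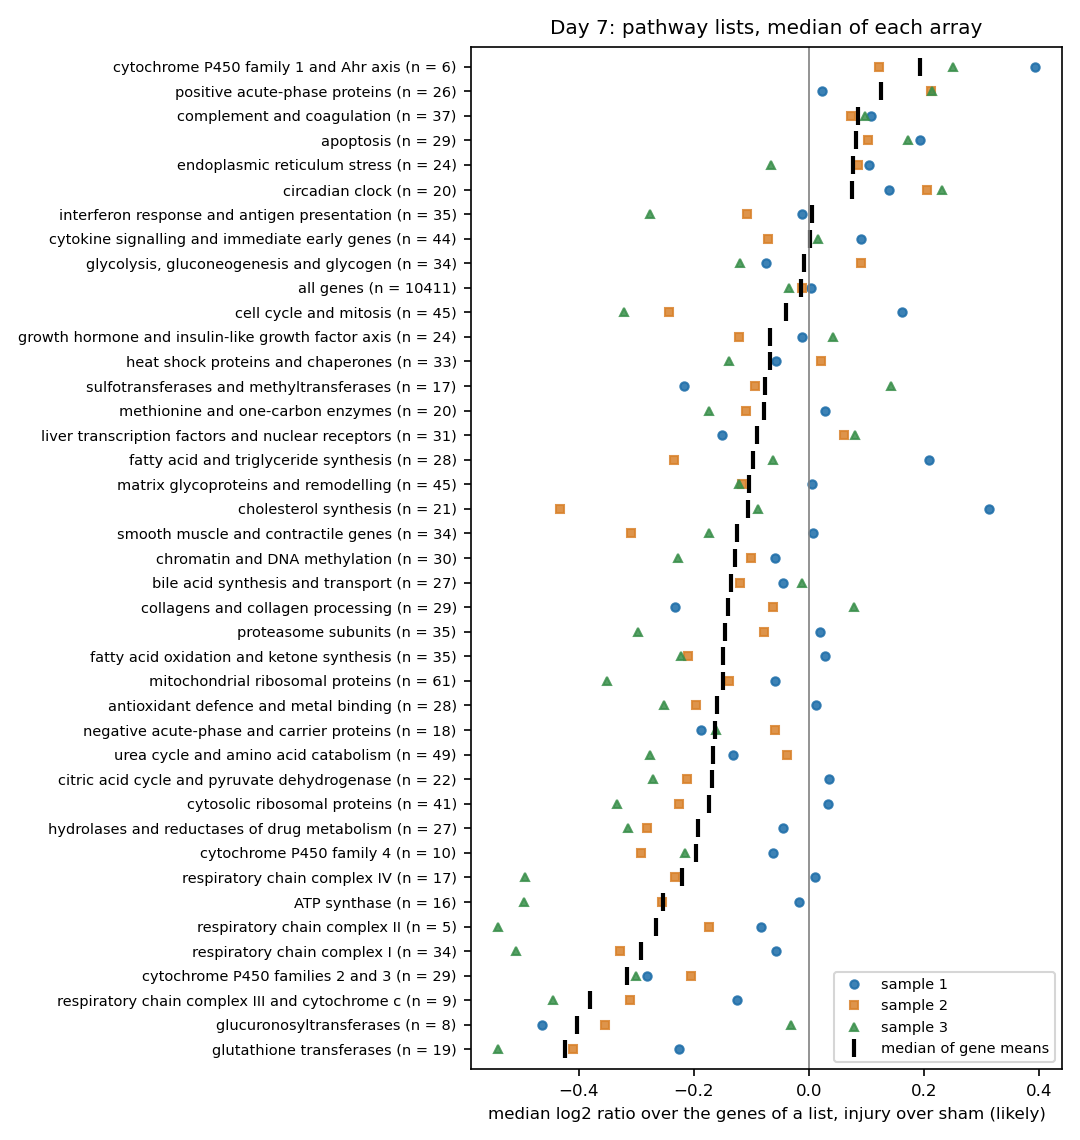
Median log2 ratio over the genes of each pathway list, in day 7 samples 1 (blue circle), 2 (orange square) and 3 (green triangle), with the median of the gene means (black bar). Glutathione transferases, complex III and complex I lie below 0 in all samples, complement and coagulation above 0 in all samples, and cholesterol synthesis runs from -0.43 to 0.31.

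The mitochondrial respiratory chain, which passes electrons through 4 complexes and drives ATP synthase, lay low as a whole. Complex I had 32 of 34 subunit means below 0, 20 of them in 3 of 3 samples, and 15 with an unadjusted p under 0.05 on the low side (median -0.29). Complex III with cytochrome c had 9 of 9 means below 0 (median -0.38). Complex II had 4 of 5 (median -0.27), complex IV 15 of 17 (-0.22) and ATP synthase 15 of 16 (-0.25). None of these genes passed over all genes. Ndufa7, a small complex I subunit, had -0.82, -0.71 and -0.62 (mean -0.72 ± 0.10, SD, n = 3, adjusted p = 0.0783). Ndufa11 had -0.37, -0.45 and -0.53, and Ndufs7 -0.32, -0.38 and -0.49. These subunits were below 0 in every sample by similar amounts.

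Uqcrc1, a core subunit of complex III, had -0.68, -0.37 and -0.67, and Sdha, the catalytic subunit of complex II, -0.65, -0.24 and -0.93. In complex IV, Cox6a1 averaged -0.41 ± 0.18. In ATP synthase, Atp5f1e had -0.12, -0.49 and -1.05 and Atp5mpl averaged -0.42 ± 0.11. The samples differed more for the lists than for the leading subunits. The median of complex I was -0.06, -0.33 and -0.51 in samples 1, 2 and 3, and that of ATP synthase -0.02, -0.26 and -0.50, so sample 1 was near 0 and sample 3 lowest. Citric acid cycle genes had a median of -0.17 (19 of 22 below 0), with Mdh2 at -0.23, -0.24 and -0.26.

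The genes of the mitochondrial and the cytosolic ribosome had the same order of samples. Mitochondrial ribosomal proteins had 53 of 61 means below 0 and a median of -0.15, with sample medians of -0.06, -0.14 and -0.35. Mrpl14 averaged -1.07 ± 0.23 and Mrpl23 -0.59 ± 0.32. Cytosolic ribosomal proteins had 34 of 41 below 0, a median of -0.17 and sample medians of 0.03, -0.23 and -0.33, with Rpl19 at -0.45 ± 0.26 and Rpl39 at 0.95 ± 0.48. Rpl39, Rpl7 and Rps24 were the 3 of these genes with an unadjusted p under 0.05 on the high side, against 8 on the low side. Proteasome subunits had 26 of 35 below 0 and a median of -0.15, with Psma1 at -0.35, -0.43 and -0.42.

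The array also reads the 3′ end and the 5′ end of actin and GAPDH, whose difference moves with RNA integrity and labelling. In log2 ratio, the 3′ minus 5′ value of actin was -0.88, -0.44 and -0.88 in day 7 samples 1, 2 and 3, and that of GAPDH -0.39, -0.21 and -0.80. At day 4 it was -0.35, 0.38 and 0.23 for actin and 0.14, 0.31 and -0.08 for GAPDH, while the complex I medians were 0.44, 0.38 and 0.39. Day 2 sample 1 had -0.79 for actin and -0.42 for GAPDH, within the range of the day 7 samples, with a complex I median of 0.05. In day 7 samples 1, 2 and 3 that median was -0.06, -0.33 and -0.51. The other day 2 samples had -0.31 and -0.06 for actin, -0.19 and 0.11 for GAPDH, and complex I medians of 0.21 and -0.06. The 2 arms thus differed in the 3′ minus 5′ value at day 7. Its part in the values of the respiratory chain and ribosomal genes was not tested. Nor was its part in those of any other gene or list, the called genes and the glutathione transferases included.

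**Figure D4:**
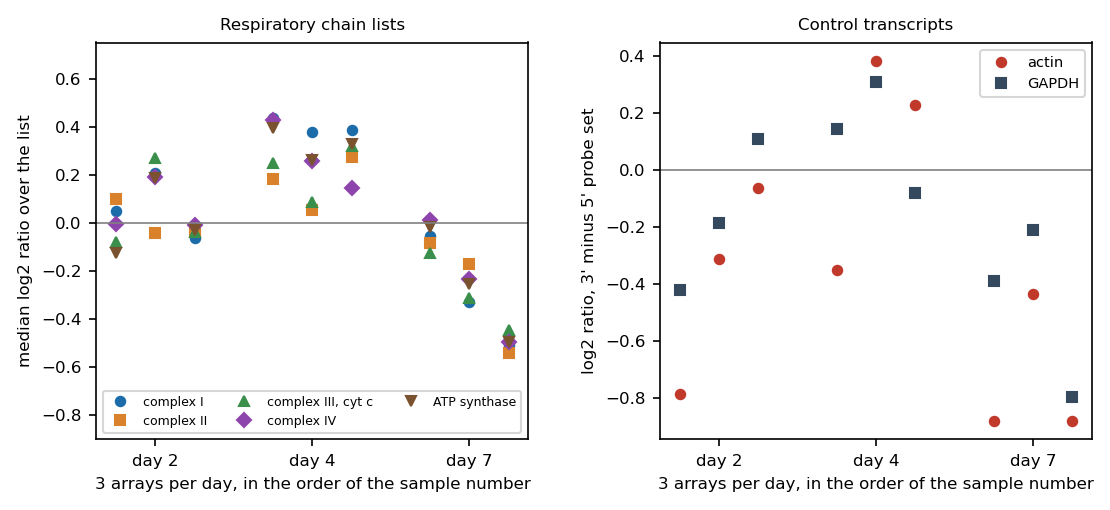
Left, median log2 ratio of 5 respiratory chain lists in each of the 9 arrays of days 2, 4 and 7 (symbols are lists). Right, log2 ratio of the 3′ minus the 5′ probe set of actin (circles) and GAPDH (squares) in the same arrays. The lists lie above 0 in every day 4 array and mostly below 0 at day 7, and the control differences are below 0 in all day 7 arrays.

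Enzymes of amino acid metabolism leaned low. In the urea cycle and amino acid catabolism 35 of 49 means were below 0 (median -0.17), 9 with an unadjusted p under 0.05 on the low side and 2 on the high side. Gpt, alanine aminotransferase, had -0.89, -0.33 and -1.28, Csad, which leads to taurine, -0.68, -0.03 and -1.32, and Fah, the last step of tyrosine breakdown, -0.37, -0.14 and -0.46. Sample 2 was nearest to 0 in all of them. Gldc, which cleaves glycine, averaged 0.46 ± 0.36. Among methionine and one-carbon enzymes, Dmgdh averaged -0.67 ± 0.25, Aldh1l1 -0.47 ± 0.22 and Cbs, which starts cysteine synthesis from homocysteine, -0.41 ± 0.20. None passed over all genes.

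Contractile genes had 24 of 34 means below 0, 12 in 3 of 3 samples, and 7 with an unadjusted p under 0.05 on the low side, 0 on the high side (median -0.13). Tagln, which binds actin in smooth muscle, had -2.26, -1.74 and -2.37, and Tpm2, a tropomyosin, -2.41, -1.57 and -2.95, both from probe sets among the dimmest 25%. Mylk, the kinase of the myosin light chain, averaged -0.38 ± 0.08 and Pdlim1 -0.39 ± 0.24 on bright probe sets. Of the matrix genes, Col1a1, the main chain of fibrillar collagen, had -0.28, -1.05 and -0.70 (probe sets at -0.44 and -0.91), and Col3a1 -0.46, -0.53 and -0.06. Sparc, a matrix protein of remodelling tissue, had -0.54, -0.35 and -0.72 and the proteoglycan Bgn -0.46, -0.26 and -0.75. On the high side, tenascin C (Tnc), a matrix protein of wounds, had 1.33, 2.13 and 2.09 on a probe set among the dimmest 25%, and Pcolce, with the smallest p of the collagen list, had 1.42, 1.22 and 0.64. The collagen list had 10 of 29 means above 0, 3 of them in 3 of 3 samples (median -0.14), and the matrix list 16 of 45, 7 of them in 3 of 3 samples (median -0.10). None of their genes passed.

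Stellate cell markers, read beside these, were not shifted as a list, with 7 means on each side of 0 and a median of -0.01. Ecm1 had -0.35, -0.47 and -0.41, while Hgf, the hepatocyte growth factor, had 1.50, 1.61 and 1.91 on a probe set among the dimmest 25%. Endothelial markers had 12 of 16 means below 0 (median -0.13), with Kdr at -0.39 ± 0.12, Eng at -0.38 ± 0.18 and Lyve1 at -0.61 ± 0.40. Macrophage markers had 7 of 13 above 0 (median 0.03), lymphocyte markers 15 of 21 (median 0.20) and bile duct markers 2 of 11 (median -0.14). The part of cell makeup in the contractile, matrix and immune values was not tested. Hepatocyte markers, the source of most plasma protein genes, had 16 of 21 below 0 (median -0.12).

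Apoptosis genes had 19 of 29 means above 0 and 7 with an unadjusted p under 0.05 on the high side against 2 on the low side (median 0.08). They included both sides of the pathway. The caspase inhibitor Xiap had 1.08, 0.50 and 1.73, and the pro-death genes Bcl2l11 and Apaf1 averaged 0.97 ± 0.75 and 0.59 ± 0.09 (Bcl2l11 from probe sets at 0.26, 0.79 and 1.86), while Cidea had -0.24, -0.74 and -1.23. In the insulin-like growth factor axis, Igfbp3, the main carrier of the growth factor, had -0.68, -0.50 and -0.59 (probe sets at -0.90 and -0.28), Igfbp7 averaged -0.39 ± 0.16, and the insulin receptor Insr and its substrate Irs1 averaged 0.60 ± 0.46 and 0.69 ± 0.30. Clock genes had a median of 0.08, with Cry2 at 0.21, 0.73 and 0.98 (probe sets at 0.40 and 0.87). In endoplasmic reticulum stress, the chaperone Hyou1 averaged 0.44 ± 0.32 (0.12 on its brighter probe set and 0.75 on the other) and Chac1, which degrades glutathione, -0.99 ± 0.63. None of these passed.

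Day 7 was then set against days 2 and 4, with the same day 7 arrays in both comparisons. Day 4 samples 2 and 3 stood apart by exocrine pancreas genes, whose medians were 2.44 and 1.28 there, -0.05 in day 4 sample 1, and between -0.18 and 0.40 in the samples of days 2 and 7. Day 7 minus day 4, 9 of these 21 genes had an unadjusted p under 0.05 on the low side (median difference -1.20).

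Against day 4, 3 genes differed out of 10411 (0.0288%, limma adjusted p under 0.05), 1 higher (0.00961%) and 2 lower (0.0192%). Apob was -0.40, -0.44 and -0.42 at day 4 against 0.76, 0.77 and 1.05 at day 7, a difference of 1.28 (SE 0.15, adjusted p = 0.0272). Gstm2 was near 0 at day 4, at -0.00, -0.14 and 0.07, so its difference was -1.003 (SE 0.13, adjusted p = 0.0303). Ndufa7 was above 0 at day 4, at 0.46, 0.69 and 0.50, and below 0 at day 7, a difference of -1.27 (SE 0.17, adjusted p = 0.0303). In each case the days did not overlap. Over all genes, every day 7 array lay above every day 4 array in 8.58% and below in 11.1%. With the brightest probe set of every gene none of the 3 passed, and Apob differed by 0.21 (adjusted p = 0.698). Gstm2 and Ndufa7 have 1 probe set each, so their differences were unchanged in that fit. Only the values of other genes changed there, and the adjusted p of both was 0.0557. Leaving out samples singly ended each of the 3 calls in 5 of 6 cases, the exception being day 7 sample 2. With day 4 sample 1 as the only day 4 sample, whose spread was taken to be that of the other days, the differences were 1.26 for Apob, -1.03 for Gstm2 and -1.18 for Ndufa7, with adjusted p of 0.395, 0.397 and 0.433.

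For complex I the difference from day 4 was below 0 in 33 of 34 subunits, 27 had an unadjusted p under 0.05 on the low side (7.94% of all genes did, and 5.28% on the high side), and the median difference was -0.64. With day 4 sample 1 alone it was -0.75, with 32 of 34 below 0 and 19 at that level (4.65% of all genes). Mitochondrial ribosomal proteins had 32 of 61 and cytosolic ribosomal proteins 24 of 41 on the low side at that level, and 18 and 13 with day 4 sample 1 alone. Among the genes next in rank, with adjusted p of 0.0697 each, were the mitochondrial import protein Timm8b (-1.17), the spliceosome protein Snrpe (-0.98), the sterol synthesis enzymes Sqle (1.60) and Lss (2.10), the glycogen regulator Ppp1r3b (2.66) and Hnf4a (1.20). Sqle was at -1.34, -1.27 and -0.85 at day 4 and 0.56, -0.11 and 0.90 at day 7, without overlap.

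Against day 2, limma called 0 genes, with 351 higher and 506 lower at day 7 at an unadjusted p under 0.05 (3.37% and 4.86%). Igfbp1, a binding protein that the liver makes in fasting and stress, was at 1.07, 2.77 and 3.19 at day 2 and 2.81, 2.47 and 1.43 at day 4. At day 7 it had -0.84, -0.15 and -0.91, below every array of days 2 and 4. Over all genes, every day 7 array lay above every day 2 array in 5.48% and below in 7.15%. The difference from day 2 was -2.98 (SE 0.51, adjusted p = 0.186) and from day 4 -2.87 (adjusted p = 0.0697). Jun, at 1.15, 0.93 and 0.51 at day 2, differed by -1.27, and Mmp14, a membrane-bound matrix protease, by -1.17, from 1.14, 1.12 and 1.04 at day 2. Mgp was above 0 in all day 2 arrays and differed by -1.32. The adjusted p of these 3 was 0.186 too. Orm1 differed from day 2 by -0.05 (SE 0.15) and A2m by -0.44.

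**Figure D5:**
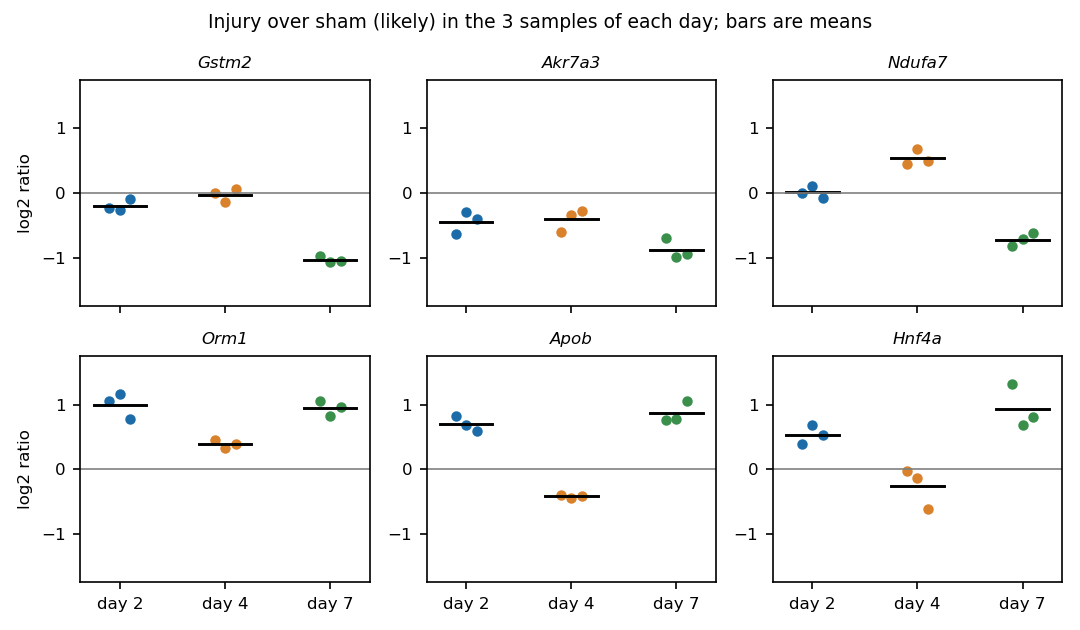
Log2 ratio of 6 genes in the 3 samples of days 2 (blue), 4 (orange) and 7 (green), with the mean of each day as a black bar. Gstm2 and Ndufa7 at day 7 lie below all other arrays, and Apob lies above 0 at days 2 and 7 and below 0 at day 4. Orm1 lies above 0 and Akr7a3 below 0 throughout.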

How the data were processed

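The authors deposited 1 table of log2 ratios, per the file headers, for 12 samples. The software, the scaling and the order of each ratio: not given in the sources used here. Per the labels, channel 1 holds sham RNA (Cy3) and channel 2 injury RNA (Cy5), which makes injury over sham likely. Of 15923 probe sets, 57 controls were left out. Of the 15866 others, 12783 had 1 symbol in the platform annotation, 312 several and 2771 none, and 12748 had a gene ID in the reference table. Each array was centred on its median and probe sets of a gene were averaged, 1868 genes having more than 1.

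A brightness per probe set was recovered as the pair of whole-number signals below 20000 whose log2 ratio matched the deposited value within 1e-09. With signals up to 3000, 66.3% to 69.4% of the values of an array had a match, against 0.207% to 0.358% after shifting the values. Up to the limit of 20000 used here, 94.0% to 94.7% matched, and 12.0% to 13.2% of shifted values did too, so some of the brighter values may be chance matches. The 89 probe sets with no match, that of Gstm2 among them, were given the upper limit of the search.

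Means per day over the 9 arrays of days 2, 4 and 7, with 6 residual degrees of freedom, were tested with limma 3.58.1 in R 4.3.3 (lmFit, eBayes with a brightness trend, Benjamini-Hochberg over all genes, threshold 0.05). Day 1 was left out because its probe identifiers do not follow those of the other days. It entered only an alternative over 12 arrays, which has no brightness trend. The number of arrays limits the precision. The tests were also run on simulated data over 10411 genes, with independent normal noise and 50 genes changed at each size. For changes of 0.5, 1, 2 and 4 on the log2 scale, the day 7 test recovered 14%, 50%, 84% and 94%, with 6 false calls. For day 7 minus day 2 the shares were 0%, 24%, 70% and 90% (9 false calls), and for day 7 minus day 4 they were 0%, 32%, 70% and 88% (0 false calls). So many changed genes loosen the Benjamini-Hochberg cutoff, while only 4 genes passed at day 7 in the real data. The shares may therefore overstate what the real data could recover.

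Named are the 15 higher and 15 lower genes with the smallest p among those with 1 sign in 3 of 3 arrays, every called gene, and up to 4 members of a list by the smallest p. Other named members were chosen after their values were seen. The members, the 53 gene lists and the motifs were chosen with earlier results of these data known. Lists are described by counts and medians without a test. Promoters are RefSeq windows on GRCr8. The alternatives were array weights, a robust prior, no brightness trend, no centring and scaling by the median absolute deviation (MAD). Others were the brightest probe set of a gene and the dimmest 25% of probe sets left out, after which 8514 genes remained. The rest were other sets of arrays, the replicate number as a block, and each sample left out. Chosen after seeing the data, day 4 samples 2 and 3 were also left out together.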

Additional observations from a re-analysis of the deposited data

Results flagged for a closer look

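In 3 genes the difference between injury and sham at day 7 differed from that at day 4, by the test of the difference itself in limma over all genes. Apob was 1.28 higher on the log2 scale at day 7 than at day 4 (adjusted p = 0.0272). For Gstm2 the difference was -1.003 and for Ndufa7 -1.27 (adjusted p = 0.0303 each). In each gene 3 of 3 day 7 samples lay on 1 side of the 3 day 4 samples. Over all genes, every day 7 sample lay above every day 4 sample in 8.58% and below in 11.1%. Leaving out samples singly ended each of the 3 calls in 5 of 6 cases. With the brightest probe set of every gene none of the 3 passed, and Apob differed by 0.21 (limma adjusted p = 0.698). The differences of Gstm2 and Ndufa7, with 1 probe set each, were unchanged in that fit (limma adjusted p = 0.0557 each).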

How the results depend on the processing

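At day 7, limma called 4 genes. The count was 0 without the brightness trend or with the day 7 arrays alone. In a fit over 12 arrays without the trend it was 1, with 0 of the 4 shared. Fits over 12 arrays take in day 1, whose probe identifiers do not follow those of the other days. Without centring it was 8, split 5 higher and 3 lower (62.5% higher against 50%). Leaving out a sample gave between 1 and 12: it was 1 without sample 1 or sample 3 and 12 without sample 2. It was 4 or 5 with array weights, a robust prior, MAD scaling, the brightest probe set or the dimmest 25% left out, and 1 with the replicate block. The probe set count of 7 was 3 with 12 arrays and 1 without the trend, and leaving out a sample gave 0 to 36.

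Against day 4, the count of 3 was 0 with 12 arrays, the brightest probe set, no trend or only the compared arrays, 1 without centring, 35 with array weights and 61 with MAD scaling. Leaving out a sample gave 0 to 23. With day 4 samples 2 and 3 left out together, a choice made after seeing the data, it was 2, with 0 of the 3 shared. Against day 2 the count was 0, and 0 to 1 leaving out a sample, 1 without day 2 sample 1.

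Deviations of same-numbered samples of different days from their day means correlated between -0.041 and 0.0682 over 9 pairs. For samples of other numbers the range was -0.122 to 0.106 over 18 pairs. Whether the numbers pair the samples cannot be settled from this, since arrays of the same day also shared little. At day 7 their r was between 0.0446 and 0.127. With the replicate number as a block, limma called 1 gene at day 7 (Gstm2, adjusted p = 0.0133), 0 against day 2 and 0 against day 4.

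Of the values of named genes under the alternatives, 1887 kept their direction and their side of the threshold, 23 no longer passed, 14 passed newly and 12 changed sign. Only the 4 called genes could lose a call, so the 23 losses were all theirs. Most of the 1887 values were of genes that had not passed. Alternatives that change only the estimate of the spread could not change a direction. Leaving out a day 7 sample gave -1.33 to 0.029 for Cyp2b12 and -1.42 to 0.25 for Gsta3, both above 0 only without sample 2. Likewise Gstm5 ran from -0.24 (without sample 3) to 0.23, Mbnl2 from -0.11 (without sample 3) to 0.30, and Mmp14 from -0.22 to 0.0046 (without sample 1) and 0.012 (without sample 2). Gstm5 was also -0.017 with array weights and -0.0049 with MAD scaling, and Mmp14 0.016 without centring. With the brightest probe set Mbnl2 was -0.80 and Lig4 0.25, as it was with dim ones left out. None of these 6 had passed. Of 53 list medians, 37 kept their sign under all 9 alternatives. Without centring, which moved the median gene to 0.07, the medians of 8 lists turned positive: sulfotransferases, methionine enzymes, the growth factor axis, stellate and muscle markers, heat shock proteins (0.016), cell cycle (0.045) and glycolysis (0.075). Without sample 1 those of collagens, haemoglobin, the interferon response, macrophage markers and endoplasmic reticulum stress changed sign, and without sample 2 those of cholesterol synthesis, cytokine signalling, the interferon response, endoplasmic reticulum stress and macrophage markers. Skin markers changed sign with the dimmest probe sets left out. The causes were not tested.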

Other observations

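Several lists lay near the median of all genes at day 7 or hold markers of tissues not named by the labels, and none of their genes passed over all genes tested. Kidney and intestine markers had the highest median of these, 0.56, with 14 of 16 means above 0 and the lowest brightness of the marker lists (7.63 on the log2 scale). Their medians in samples 1, 2 and 3 were smaller, at 0.23, 0.10 and 0.35. Only 3 of the 16 lay above 0 in 3 of 3 samples (15.6% of all genes did). Adipocyte markers had 9 of 11 means above 0 (median 0.19), exocrine pancreas markers 13 of 21 (0.19), haemoglobin and red cell genes 7 of 12 (0.14) and skin epithelium markers 7 of 12 (0.14). Skeletal and heart muscle markers had 13 of 29 above 0 (median -0.07).

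Bile acid genes had 19 of 27 means below 0 (median -0.14) and chromatin genes 21 of 30 (-0.13), while cholesterol synthesis had 13 of 21 (-0.11). Heat shock proteins and chaperones had 19 of 33 below 0 (-0.07), the growth hormone and insulin-like growth factor axis 15 of 24 (-0.07), cell cycle genes 26 of 45 (-0.04) and glycolysis, gluconeogenesis and glycogen genes 18 of 34 (-0.01). Without centring the medians of the muscle, heat shock, growth hormone, cell cycle and glycolysis lists lay above 0.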
